A study of Arabidopsis thaliana with 8 samples.

Results

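Cytochrome P450 genes were followed in roots of Arabidopsis thaliana across genotype and iron supply. The members were the genes whose symbol is CYP followed by a number, letters and a number, that were named alone by a probe set. CYP71B5 was left out. This gave 21 genes, each with 1 probe set, among 13356 genes so named and 22746 probe sets tested. The RefSeq gene table holds 225 genes with such a symbol, so the 21 are a small and uneven sample of the family: 17 belong to the subfamily CYP71B and 4 to other subfamilies. The synonyms of all 21 in that table name cytochrome P450. For 19 the table gives a protein-coding gene, and for 2, CYP51G2 and CYP71B27, a transcribed pseudogene.

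Cytochrome P450 enzymes carry a haem iron held by a cysteine and use it to activate oxygen, most often to hydroxylate a small molecule. In plants they are a very large family that makes and breaks down hormones, lignin and suberin precursors, sterols, glucosinolates and phytoalexins. The CYP71B subfamily of Arabidopsis lies largely in tandem arrays, and the substrates of most of its enzymes are not well known. Each enzyme needs iron for its haem, so the family is both a possible part of a response to iron shortage and a consumer of iron.

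The 4 groups of 2 arrays were compared, each array holding total RNA from whole roots. WT plants and fit plants, which carry a mutation of FIT, the basic helix-loop-helix factor of root iron uptake, were kept for 14 days on Gamborg's B5 medium. They were then moved for 3 days to a basal agar medium either with 50 µM Fe(III)-EDTA (sufficient iron) or with no added iron and 300 µM ferrozine, a chelator of ferrous iron (iron deficiency). The labels do not name the allele of fit or the accession, and they call the replicates biological. The values are signal intensities after RMA, a method that corrects background, equalises the distributions of the arrays and combines the probes of each probe set, and they are given here as log2. In whole roots, fewer cells of a type and less RNA per cell cannot be told apart.

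No probe set named FIT, so the mutation was not checked from the signal of its gene. Array medians lay between 6.81 and 6.88. The 3' to 5' signal ratio of actin, GAPDH and ubiquitin controls, which is raised when RNA is degraded or copied incompletely, was 3.08 on WT iron-deficient replicate 2 and 5.22 on fit iron-deficient replicate 2, and 1.07 to 1.53 on the other arrays. A gene is called measured here if a probe set names it alone. Of the 22746 probe sets tested, 8730 had no name and 503 named several genes. An unmeasured gene may therefore still lie on one of those. Of the tissue markers, 2 of 6 root hair genes were measured, the expansins EXPA7 and EXPA18, with group means between 7.52 and 8.99. None of 8 endodermis, 9 stele and 4 root cap markers was measured. The 3 measured of 12 shoot photosynthesis markers, RCA, LHCB4.1 and PORB, had group means between 6.21 and 8.20. These 3 genes were listed as low in roots, yet the group means of RCA (6.90 to 7.63) and LHCB4.1 (7.75 to 8.20) lay above all array medians. Those of PORB lay between 6.21 and 6.84. The root label comes from the sample titles, and few markers were measured to set beside it.

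None of the 21 P450 genes was called in any of the 5 comparisons (limma, Benjamini-Hochberg adjusted p under 0.05 over all probe sets). The nearest to the threshold was CYP78A9, which had a lower signal in iron-deficient WT roots. The 4 genes CYP78A9, CYP71B34, CYP71B28 and CYP71B29 had an unadjusted p under 0.05 in at least 1 of the 4 comparisons of 2 groups, 19.0% of the family against 15.7% of all probe sets. For 15 of the 21 genes the 95% interval of the difference stayed within 2-fold either way in all 4 of those comparisons. Over all probe sets the share was 60.2%. A p that misses the threshold does not show that groups were alike.

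**Figure D1:**
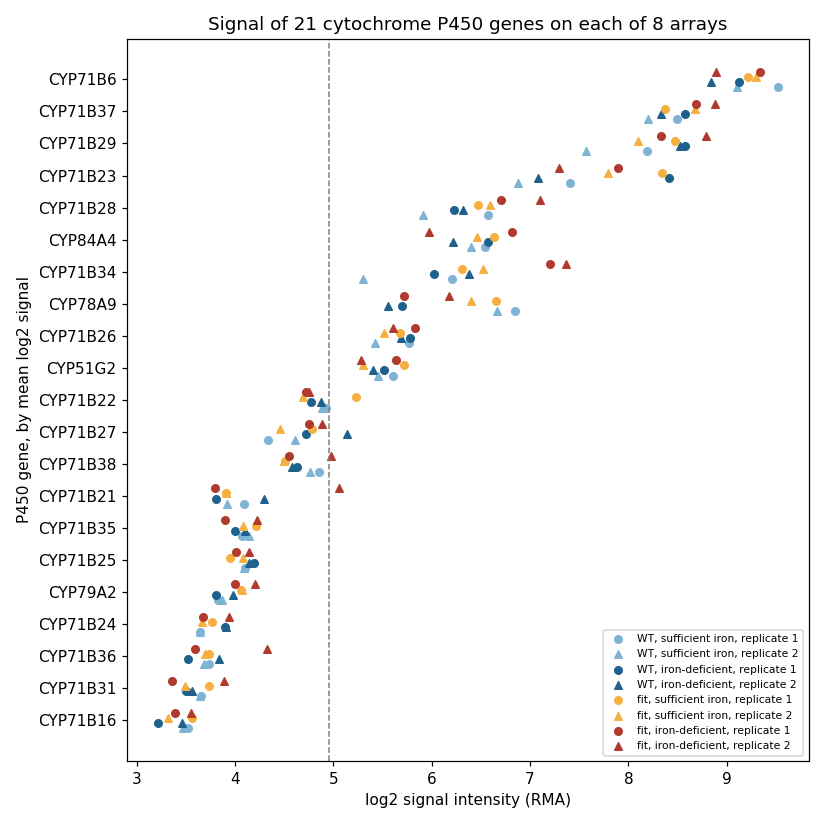
log2 signal intensity (horizontal axis) of the 21 P450 genes (rows, ordered by their mean over 8 arrays) on every array. Colours give the group, circles replicate 1 and triangles replicate 2, and the dashed line is the 25th percentile of the mean signal over all probe sets, 4.96. For 11 genes the mean lies left of the line.

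The members differed widely in their level of signal. Of the 21 genes, 11 had a mean log2 signal under the 25th percentile of all probe sets, 4.96, and their means ran from 3.44 for CYP71B16 to 4.86 for CYP71B22. RMA compresses differences at such low signal, and no detection calls were used to separate expressed from unexpressed genes. Over the 8 arrays the values of these 11 genes spanned between 0.24 for CYP71B25 and 1.25 for CYP71B21, with a median span of 0.48. The other 10 genes had means from 5.49 for CYP51G2 to 9.16 for CYP71B6 and spans from 0.41 for CYP71B26 to 2.07 for CYP71B34, with a median of 1.01. Among all probe sets the median span was 0.51 under the same percentile and 0.84 above it.

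The first comparison asked how the P450 genes of WT roots respond to iron deficiency. CYP78A9 belongs to the CYP78A group, whose members are known to promote growth of seeds and floral organs. Its log2 signals were 6.84 and 6.66 with sufficient iron and 5.69 and 5.56 under iron deficiency. The groups did not overlap, and the gap between them was several times the distance between replicates. The difference was -1.13 (SE 0.21, 95% interval -1.62 to -0.63), or 2.18-fold lower, with a limma adjusted p of 0.117 (unadjusted p = 0.000834). With the control ratio as a covariate the value was -1.16 and it passed, at a limma adjusted p of 0.0215, in a fit that called 382 probe sets, or 1.68%, against 98 without the covariate. Without the arrays of ratio 3.08 and 5.22 it was -1.06.

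In WT, 4 members were higher in both iron-deficient WT arrays than in both WT arrays with sufficient iron, and CYP71B29 had the largest such difference. Its signals were 8.19 and 7.57 with sufficient iron and 8.58 and 8.52 under deficiency, a difference of 0.67 (SE 0.27, limma adjusted p = 0.661). The WT arrays with sufficient iron differed from each other by nearly as much as the groups did. Without WT iron-sufficient replicate 2 its difference was 0.36. CYP71B27, a pseudogene in the same run of genes, had 4.33 and 4.61 against 4.72 and 5.14, a difference of 0.46 (SE 0.22) that was 0.25 without WT iron-deficient replicate 2. CYP71B24 had 0.26 (SE 0.17) and CYP71B25 0.07 (SE 0.17).

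Lower without overlap were 5 members. Beside CYP78A9 these were CYP71B38 at -0.20 (SE 0.19), CYP71B16 at -0.16 (SE 0.19), CYP71B22 at -0.08 (SE 0.21), and CYP71B31, an oxidase of the floral monoterpene alcohol linalool, at -0.12 (SE 0.22). All 4 lie under the 25th percentile of signal, and their differences are smaller than or about equal to their standard errors.

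Set against the whole array, 0 of the 21 members were called in WT, where 0.431% of probe sets were called. CYP71B5, left out of the 21 by the rule, was called there (limma adjusted p = 3.09e-05). At an unadjusted p under 0.05 there were 2 members, or 9.52%, against 7.20% of all probe sets. The members without overlap, 4 higher and 5 lower, are 19.0% and 23.8% of the family, against 18.9% and 19.3% of all probe sets. The median difference was 0.03 over the members and -0.01 over all probe sets. In 17 of the 21 genes, or 81.0%, the 95% interval lay within 2-fold either way, against 75.8% of all probe sets. These shares are near the background of the array.

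**Figure D2:**
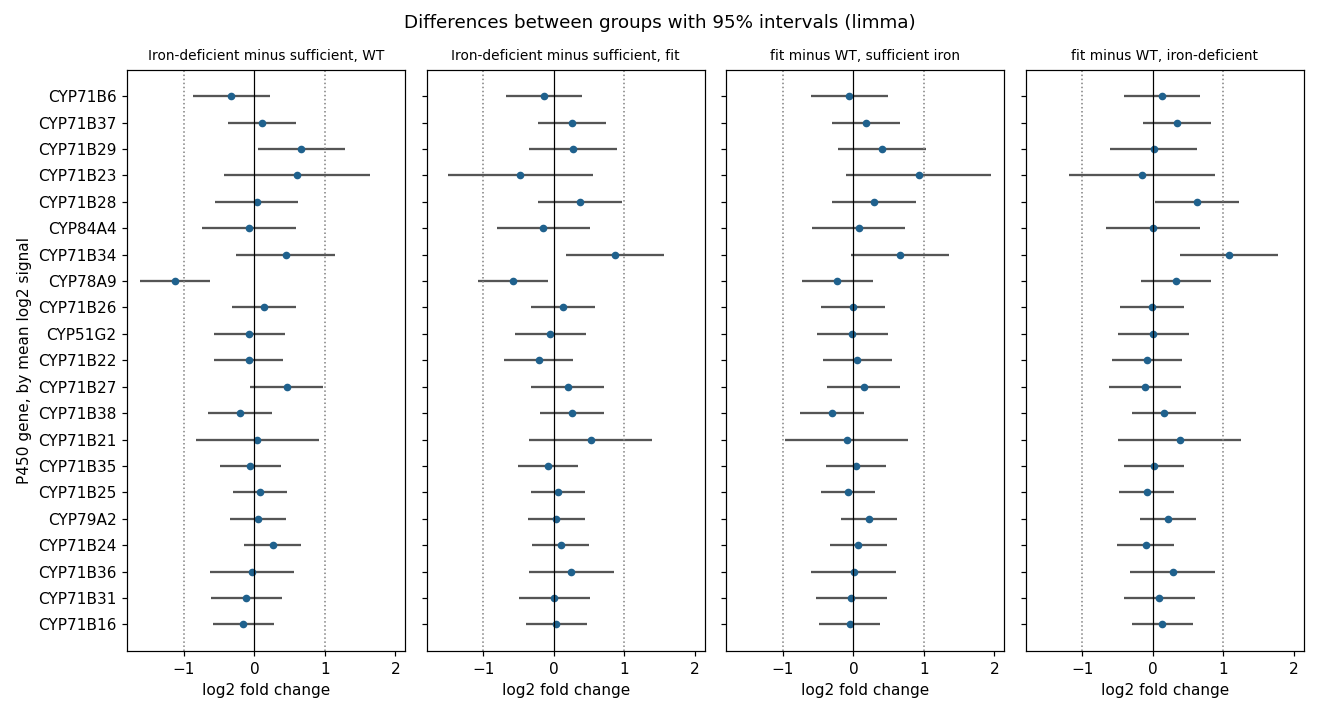
Differences in log2 signal (points) with 95% intervals (bars) from limma for the 21 P450 genes, in the 4 comparisons of 2 groups, with dotted lines at 2-fold. CYP78A9 in WT lies at -1.13 with an interval that ends at -0.63, and CYP71B34 in iron-deficient roots at 1.08.

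The second comparison asked which P450 genes respond in fit. CYP71B34 had the highest difference, with signals of 6.31 and 6.52 with sufficient iron and 7.20 and 7.37 under deficiency. The groups stood apart by more than the distance between replicates in either. The difference was 0.87 (SE 0.30, 95% interval 0.17 to 1.57, limma adjusted p = 0.484), or 1.82-fold higher.

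CYP78A9 was again the lowest. Its signals were 6.65 and 6.40 with sufficient iron and 5.72 and 6.18 under deficiency, so the iron-deficient arrays lay below both others and differed from each other by 0.45. The difference was -0.58 (SE 0.21, limma adjusted p = 0.521). It moved to -0.80 without fit iron-deficient replicate 2, the array with a control ratio of 5.22, and to -0.35 without fit iron-deficient replicate 1.

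A further 3 genes were higher without overlap. CYP71B28 had 6.47 and 6.59 against 6.70 and 7.10, a difference of 0.37 (SE 0.26) that was 0.17 without fit iron-deficient replicate 2. CYP71B37 had 8.37 and 8.68 against 8.69 and 8.88, a difference of 0.26 (SE 0.21), its groups being almost in contact, and 0.10 without fit iron-sufficient replicate 1. CYP71B38 had a mean of 4.503 ± 0.01 (SD, n = 2) against 4.55 and 4.97, a difference of 0.26 (SE 0.19) that came down to 0.05 without fit iron-deficient replicate 2.

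In fit 0 of 21 were called, where 0.202% of probe sets were. At an unadjusted p under 0.05 there were 2 members, or 9.52%, against 8.52% of all. The groups did not overlap for 4 higher members, 19.0% against 19.4% of all probe sets, and for 1 lower member, 4.76% against 16.4%. The median difference was 0.06 over the members and 0.03 over all. The 95% interval lay within 2-fold for 17 genes, or 81.0%, against 72.5% of all. The signs of the iron response were the same in WT and fit for 16 genes, 10 higher in both and 6 lower in both, and opposite for 5. Among all probe sets the sign was the same for 63.6%, with 33.4% higher in both and 30.2% lower in both.

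The third comparison set fit roots beside WT roots with sufficient iron. CYP71B23 had the highest difference, with 7.41 and 6.88 in WT and 8.34 and 7.79 in fit. The groups did not overlap. The difference was 0.92 (SE 0.45, 95% interval -0.11 to 1.96, limma adjusted p = 1.00), or 1.90-fold higher, and it lay between 0.65 and 1.20 when single arrays were left out.

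CYP71B34 had 6.21 and 5.30 in WT and 6.31 and 6.52 in fit, a difference of 0.66 (SE 0.30). Here the low WT replicate 2 carried most of the value: without it the difference was 0.21, and without WT replicate 1 it was 1.11. CYP79A2, which converts phenylalanine to its aldoxime in the synthesis of benzylglucosinolate, had 3.83 and 3.87 in WT and 4.06 and 4.07 in fit, a difference of 0.22 (SE 0.17). Its replicates lay close together, and its signal lay under the 25th percentile. CYP71B24, at 0.07 (SE 0.17), was the fourth gene higher without overlap.

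Lower in fit without overlap were CYP71B38, with 4.85 and 4.76 against a mean of 4.503 in fit, a difference of -0.30 (SE 0.19), and CYP78A9 at -0.23 (SE 0.21), followed by CYP71B21 at -0.10 (SE 0.38) and CYP71B25 at -0.08 (SE 0.17). None of the 21 was called with sufficient iron, where 0.00879% of all probe sets were, and none had an unadjusted p under 0.05, against 1.84% of all. The 4 genes on each side are 19.0% of the family, against 17.3% of all probe sets higher and 16.5% lower. For 18 genes, or 85.7%, the 95% interval lay within 2-fold, against 82.4% of all.

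The fourth comparison set fit roots beside WT roots under iron deficiency. CYP71B34 stood highest again, with 6.02 and 6.38 in WT and 7.20 and 7.37 in fit. Both fit arrays lay above both WT arrays by more than the replicates differed. The difference was 1.08 (SE 0.30, 95% interval 0.38 to 1.78, limma adjusted p = 0.460, unadjusted p = 0.00744), or 2.12-fold higher in fit. Its value lay between 0.90 and 1.26 when single arrays were left out, and at 1.18 without the arrays of high control ratio. The measured root hair markers, neither of which was called, also differed on the iron-deficient fit arrays. EXPA7 had -1.28 (SE 0.33) for the iron response of fit and -1.30 (SE 0.33) against iron-deficient WT, and EXPA18 had -1.23 and -1.03 (SE 0.31 each), while in WT their iron differences were 0.45 and 0.14. Of the shoot markers RCA had -0.67 (SE 0.17) for the iron response of fit and -0.63 (SE 0.17) for that of WT. LHCB4.1 had -0.45 in fit and -0.34 in WT (SE 0.32 each). PORB had 0.01 in fit and -0.63 in WT (SE 0.47 each), and its iron-deficient fit arrays had an SD of 1.13. None of these shoot markers was called. The part of these markers in the P450 values was not tested.

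CYP71B28 had 6.23 and 6.32 in WT and 6.70 and 7.10 in fit, a difference of 0.62 (SE 0.26, limma adjusted p = 0.924). Its value lay between 0.42 and 0.82 when single arrays were left out, and at 0.47 without the arrays of high control ratio. CYP71B37 had 8.57 and 8.33 against 8.69 and 8.88, a difference of 0.34 (SE 0.21) that was 0.12 without the arrays of high control ratio. CYP78A9 was 0.32 higher in fit (SE 0.21), a value that went down to 0.03 without the arrays of high control ratio. CYP79A2 had 3.81 and 3.97 against 4.00 and 4.20, a difference of 0.21 (SE 0.17), close to its difference with sufficient iron. CYP71B22, at -0.08 (SE 0.21), was the one gene lower in fit without overlap.

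Of the 21 genes, 0 were called here, where 0.273% of all probe sets were. At an unadjusted p under 0.05 there were 2, both higher in fit, or 9.52% of the family against 5.13% of all in either direction. The groups did not overlap for 5 higher members, 23.8% against 13.5% of all probe sets, and for 1 lower member, 4.76% against 11.1%. For 17 genes, or 81.0%, the 95% interval lay within 2-fold, against 78.4% of all. This comparison shares the iron-deficient fit arrays with the second, in which CYP71B34 was also highest.

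**Figure D3:**
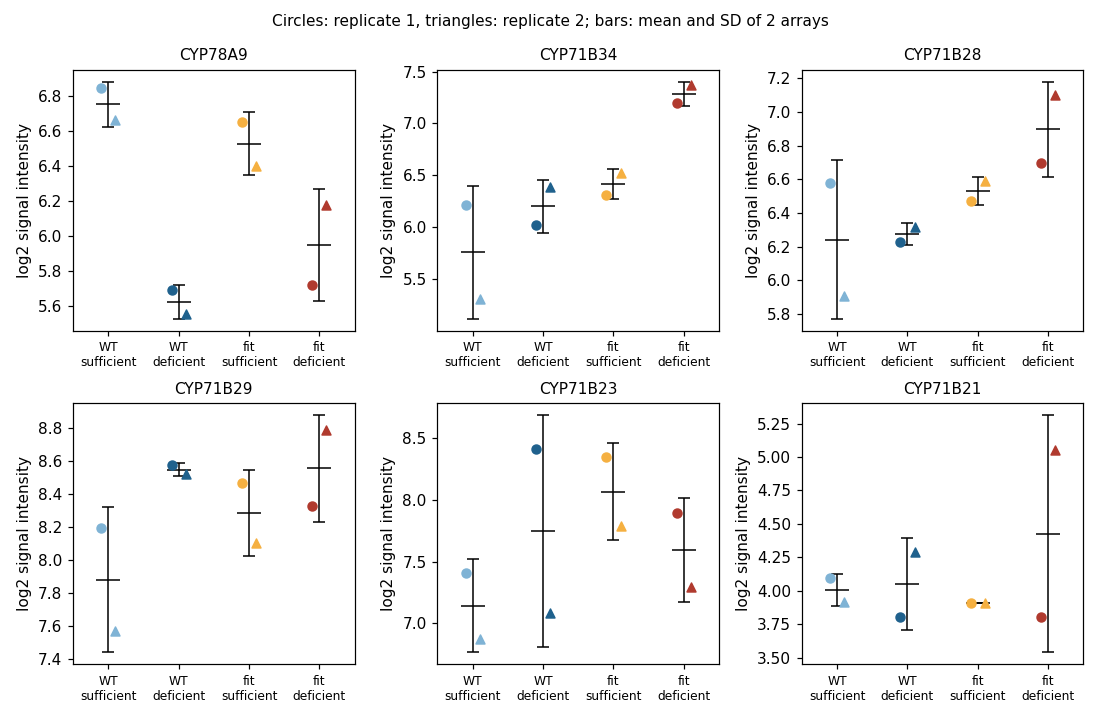
log2 signal intensity (vertical axis, own range per gene) of 6 P450 genes in the 4 groups (horizontal axis). Circles are replicate 1, triangles replicate 2, and bars the mean with the SD of 2 arrays. CYP78A9 is lower on all iron-deficient arrays than on any with sufficient iron, and CYP71B34 is highest on the iron-deficient fit arrays.

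The last comparison, of the iron response of fit minus that of WT, asked whether the genotype alters the response. It was called for 0 of 21 genes, with 0 at an unadjusted p under 0.05, against 0.0747% of all probe sets called and 3.25% at that unadjusted p. The widest was CYP71B23, at -1.08 (SE 0.63, 95% interval -2.54 to 0.38). Its signals were 8.41 and 7.08 in iron-deficient WT and 7.89 and 7.29 in iron-deficient fit, so the iron response was 0.61 in WT and -0.47 in fit, while the groups overlapped in each. The WT iron-deficient arrays of this gene differ by 1.33, the widest distance between replicates of any member in that group. The difference of responses was -0.42 without WT iron-deficient replicate 1, -1.75 without WT iron-deficient replicate 2, and -0.65 with the control ratio as a covariate.

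CYP78A9 had 0.55 (SE 0.30, limma adjusted p = 1.00), from -1.13 in WT and -0.58 in fit. CYP71B21 had 0.48 (SE 0.53), CYP71B38 0.46 (SE 0.27), CYP71B34 0.42 (SE 0.43) and CYP71B28 0.34 (SE 0.36). Below 0 lay CYP71B29 at -0.39 (SE 0.38), CYP71B27 at -0.26 (SE 0.32), CYP71B24 at -0.17 (SE 0.25) and CYP71B22 at -0.14 (SE 0.30). The precision of this comparison was the lowest of the 5. The 95% interval lay within 2-fold for 12 of 21 genes, or 57.1%, against 47.6% of all probe sets.

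Most members have neighbours in the family. By the order of genes in the RefSeq table, 14 of the 21 fall into 2 runs. CYP71B27, CYP71B28 and CYP71B29 lie within 5 genes, from AT1G13070 to AT1G13100. Another 11, from CYP71B16 at AT3G26150 to CYP71B37 at AT3G26330, lie within 25 genes, and in this run CYP71B34, CYP71B35, CYP71B36 and CYP71B37 follow each other with no gene between them, as do CYP71B21, CYP71B22 and CYP71B23.

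In the shorter run all 3 genes had a positive iron difference in both genotypes, from 0.03 to 0.67 in WT and from 0.20 to 0.37 in fit, with medians of 0.46 and 0.27. In the longer run 7 of 11 were positive in WT, between -0.16 and 0.61 with a median of 0.07, and 8 of 11 in fit, between -0.47 and 0.87 with a median of 0.09. CYP71B34 had 0.87 in fit while CYP71B35, directly next to it, had -0.08 (SE 0.19), and the difference between these genes was not tested. CYP71B35, with a mean signal of 4.09 against 6.41 for CYP71B34, lay under the 25th percentile. So did CYP71B16, CYP71B21, CYP71B22, CYP71B24, CYP71B25 and CYP71B36 of the longer run and CYP71B27 of the shorter one.

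**Figure D4:**
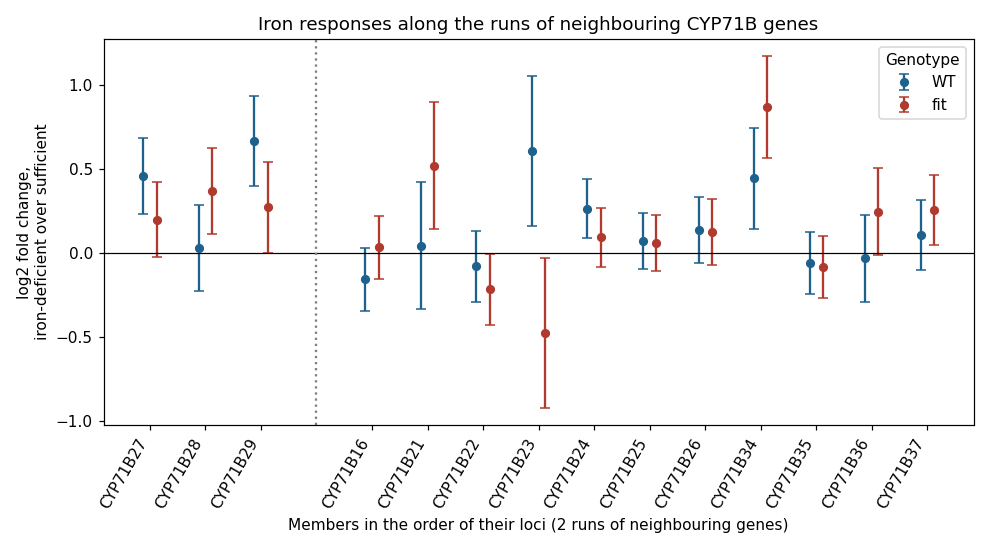
Iron response as log2 fold change (vertical axis) with its limma SE for the CYP71B genes of the 2 runs of neighbours, in the order of their loci (horizontal axis), in WT (blue) and fit (red). The dotted line separates the runs. CYP71B34 lies at 0.44 in WT and 0.87 in fit, and CYP71B35 beside it at -0.06 and -0.08.

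CYP71B31, at AT3G53300, has CYP71B5 as a near neighbour at AT3G53280, with the pseudogene CYP71B30P between them. CYP71B5 had 4.02 and 4.01 in WT with sufficient iron and 8.61 and 8.81 under deficiency, and means of 4.05 and 4.08 in fit with sufficient iron and under deficiency. It was called in WT, for fit against WT under iron deficiency, and for the difference of iron responses. CYP71B31 lay between 3.36 and 3.89 on all 8 arrays and had an iron difference of -0.12 (SE 0.22) in WT and 0.01 (SE 0.22) in fit. CYP71B30P lay between 3.38 and 3.78, with -0.18 (SE 0.18) in both genotypes. The 95% interval of the CYP71B31 difference in WT ran from -0.62 to 0.38, against a difference of 4.70 for CYP71B5. CYP71B31 and CYP71B30P both lay under the 25th percentile of signal.

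CYP71B6, CYP84A4 and CYP51G2 were called in no comparison. CYP71B6 metabolises indole-3-acetonitrile, an intermediate near camalexin, and had 9.52 and 9.10, then 9.13 and 8.84 in WT, and 9.21 and 9.29, then 9.33 and 8.89 in fit, with sufficient iron first. All groups overlapped, with a difference of -0.33 (SE 0.23) in WT and -0.14 (SE 0.23) in fit. CYP84A4 makes a catechol intermediate of the arabidopyrones from a lignin precursor, and had -0.08 (SE 0.29) in WT and -0.15 (SE 0.29) in fit. Its iron-deficient fit arrays, 6.81 and 5.97, were its highest and lowest values. CYP51G2, a relative of the sterol demethylase gene annotated as a pseudogene, lay between 5.29 and 5.72 throughout, with -0.07 and -0.05 (SE 0.22 each).

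CYP71B26, CYP71B35, CYP71B36 and CYP71B16 each had group means within 0.28 of each other. CYP71B26 had 0.14 (SE 0.20) in WT and 0.13 (SE 0.20) in fit for the iron response. CYP71B35 lay between 3.90 and 4.23, and CYP71B16 between 3.22 and 3.56. CYP71B36 lay between 3.52 and 3.84 on 7 arrays and at 4.33 on fit iron-deficient replicate 2.

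That array stood out for the family. Of the 21 genes, 11 had their highest value on fit iron-deficient replicate 2, where 27.6% of all probe sets had theirs. None had it on replicate 2 of either group with sufficient iron, where 15.4% (WT) and 4.59% (fit) of all probe sets had theirs. WT iron-sufficient replicate 2 held the lowest value of 6 of the 21 genes, where 13.5% of all probe sets had theirs. These were CYP71B23, CYP71B26, CYP71B28, CYP71B29, CYP71B34 and CYP71B37. On that WT array 4 of the 21 were higher than on WT iron-sufficient replicate 1, against 50.1% of all probe sets. All 11 genes of low signal were higher on fit iron-deficient replicate 2 than on fit iron-deficient replicate 1, by a median of 0.26. Of all probe sets of low signal, 74.5% were higher on it. Of the 10 brighter genes 5 were higher on it, against 43.8% of all brighter probe sets. CYP71B21 had the widest gap, 3.80 on replicate 1 and 5.06 on replicate 2, followed among the dim genes by CYP71B36 and CYP71B31. The control ratio was 1.50 on replicate 1 and 5.22 on replicate 2, and its part in these gaps between replicates was not tested.

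**Figure D5:**
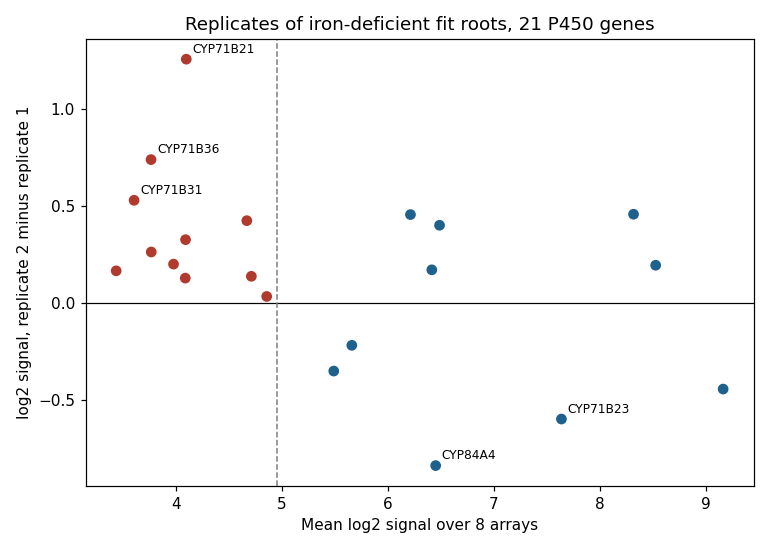
Difference in log2 signal between the iron-deficient fit arrays, replicate 2 minus replicate 1 (vertical axis), against the mean log2 signal over 8 arrays (horizontal axis) for the 21 P450 genes. Red points are the 11 genes under the 25th percentile of signal (dashed line), all above 0, and blue points the other 10, of which 5 are above 0.

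Outside the 21 genes, few related probe sets could be read. One probe set is shared by CYP71B19 and CYP71B20, which lie inside the longer run, and its values were 5.59 and 5.31, then 5.58 and 5.58 in WT, and 5.68 and 5.52, then 5.78 and 5.99 in fit. Its iron difference was 0.13 (SE 0.19) in WT and 0.28 (SE 0.19) in fit. Another is shared by CYP79C2 and AT1G58265, with 0.23 (SE 0.27) and 0.04 (SE 0.27). CYP718, a P450 gene whose symbol has another form, had -0.36 (SE 0.29) and -0.20 (SE 0.29). None of the 3 was called in any comparison.

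Of 87 P450 symbols placed in 14 lists by role, 5 were measured by a probe set naming them alone: CYP71B6, CYP84A4, CYP51G2, CYP71B31 and CYP78A9. The others may still lie on probe sets with no name or with several. No gene of the lists for coumarin, suberin, brassinosteroid, gibberellin, abscisic acid, cytokinin, strigolactone, jasmonate or carotenoid P450 enzymes was among them, and these enzymes were not analysed here. The haem that P450 enzymes carry is made by a plastid pathway, of which 6 of 18 listed genes were measured. None was called by limma in any of the 5 comparisons, and none had an unadjusted p under 0.05. HEMA2, a glutamyl-tRNA reductase isoform at the start of the pathway, had -0.76 (SE 0.40) in fit, where its iron-deficient mean was 6.67 ± 0.98 (SD, n = 2), and 0.03 (SE 0.40) in WT. HEMA3, its relative, had 0.02 and 0.10 (SE 0.18 each). GSA1, the aminotransferase of the next step, had 0.23 and 0.11 (SE 0.17 each), HEMB1, which forms porphobilinogen, 0.00 and -0.14 (SE 0.22 each), and the uroporphyrinogen decarboxylases HEME1 and HEME2 had -0.09 and -0.12 in WT and -0.16 and -0.04 in fit. UGT74B1, a glucosyltransferase of glucosinolate synthesis, had 0.01 (SE 0.43) in WT and -0.08 (SE 0.43) in fit. None of 8 redox partner genes of P450 enzymes was measured.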

How the data were processed

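Biotin-labelled RNA was hybridised to Affymetrix Arabidopsis arrays. Each deposited value is the signal intensity of 1 probe set, made with RMA per the submitters' processing notes, with its version not given in the sources used here. They were linear, so tests ran on log2 values computed from the deposited intensity. Of 22810 probe sets, 64 controls were left out. Gene names came from the platform annotation, updated by gene identifier from the RefSeq table of TAIR10.1. The gene positions in that table gave the order of neighbours.

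Group means were fitted to all 8 arrays with limma 3.58.1 in R 4.3.3 (lmFit, eBayes), with Benjamini-Hochberg adjustment over 22746 probe sets, a threshold of 0.05, and 4 residual and 3.82 prior degrees of freedom. Intervals use the moderated SE. The fit was tested on simulated data. Precision is limited by 2 arrays per group.

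The text names members called in any comparison, and per comparison the 5 highest and 5 lowest among those whose groups do not overlap. For the difference of iron responses, which has no such groups, the 5 highest and 5 lowest were taken. It also gives values of role-list members. Remaining members, neighbours and probe sets shared by several genes are given to complete the family. Members, role lists and alternatives were chosen with earlier results of these data known. The alternatives were a replicate block, renewed quantile normalisation, a filter on dim probe sets, a trended and robust variance, array weights, the control ratio as a covariate, narrower adjustment and fewer arrays.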

Additional observations from a re-analysis of the deposited data

How the results depend on the processing

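The count of called P450 genes was 0 under all 17 alternatives for the iron response in fit and for both comparisons of fit with WT, under all 16 for the difference of iron responses, and under 16 of 17 for the iron response in WT. The exception was the 3' to 5' control ratio as a covariate, which called 1 gene, CYP78A9, and 382 probe sets of the whole array against 98 in the reported fit; the cause was not tested. With a replicate block 0 genes were called in every comparison, and CYP78A9 in WT had a limma adjusted p of 0.0721. Over the whole array the block raised the calls in every comparison. They were 201 against 98 in WT and 145 against 46 in fit. For fit against WT they were 4 against 2 with sufficient iron and 134 against 62 under deficiency. For the difference of iron responses they were 40 against 17. The labels do not say that equal replicate numbers share a batch. The replicate differences correlated at 0.13 to 0.66 between groups, all positive, and most between the iron-deficient groups of WT and fit. Of 616 recomputed values of named genes, 612 kept their direction and their side of the threshold. Leaving out 1 array reversed the sign of 3 differences of responses: the range was -0.15 (without fit iron-deficient replicate 2) to 1.103 for CYP71B21, -0.031 (without WT iron-sufficient replicate 1) to 0.88 for CYP71B34, and -0.41 to 0.13 (without fit iron-sufficient replicate 1) for CYP71B22. CYP78A9 in WT lay between -1.22 and -1.04 over all alternatives, with adjusted p between 0.0215 and 0.602. The mean of several probe sets per gene was not run, since each gene had 1. Low signal limits 11 of the 21 genes.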
